A study of Mus musculus with 6 samples.

Results

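The genes described here run the methionine cycle and the transsulfuration pathway of the liver. The 10 members are Mat1a, Mat2a, Gnmt, Bhmt, Bhmt2, Ahcy, its copy Gm4737, Cbs, Cth and Pemt, taken by gene name from a deposited table of 55536 entries, and all 10 passed the filter on low counts. RNA was sequenced from 6 livers of male C57BL/6 mice, 3 Sirt5-/- and 3 Sirt5+/+; Sirt5 encodes a mitochondrial deacylase. At 4 weeks of age every animal, of either genotype, had been given plasmid DNA by hydrodynamic injection, a rapid high-volume injection into a vein that drives DNA mainly into hepatocytes. The injected DNA was 50 µg of PB[CMV-myc-YAP5SA]DS, a plasmid that carries an active form of the co-activator YAP, and 10 µg of Act-PBase, the transposase plasmid, and the livers were taken 20 days later. All 6 livers are therefore from animals injected with the YAP5SA plasmid, so the comparison is of genotypes within injected livers, and animals injected with another plasmid were not analysed here. Whether each liver took up and expressed YAP5SA to a like degree was not tested. By its title, the series is about SIRT5 loss in liver cancer development, with bile acids and immune suppression. Nothing in the labels says that the replicates are separate animals, so p-values measure only the spread between these samples.

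In the methionine cycle, methionine is joined to ATP to form S-adenosylmethionine (SAM), the methyl donor of most methylation reactions. Methyl transfer leaves S-adenosylhomocysteine, which is split to homocysteine, and homocysteine is either methylated back to methionine or sent through cystathionine to cysteine, the route called transsulfuration. The adult hepatocyte is the main site of this metabolism and is known for its own set of enzymes. MAT1A makes SAM in the adult liver, and MAT2A makes it in other tissues, in the fetal liver and in dividing hepatocytes. GNMT and PEMT are large consumers of SAM, BHMT remakes methionine from betaine, and CBS and CTH carry out transsulfuration.

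Library totals ran from 20025180 to 24330797 estimated read counts in Sirt5-/- livers and from 19307808 to 23410091 in Sirt5+/+ livers. Sirt5 had 14, 45 and 18 counts in Sirt5-/- replicates 1 to 3, against 352, 441 and 96 in Sirt5+/+ replicates 1 to 3, and fell by 4.13 ± 0.38 on the log2 scale (SE; edgeR quasi-likelihood test, adjusted p = 0.00146). The share of counts on the 37 mitochondrially encoded genes was 40.8, 21.5 and 17.5% for Sirt5-/- replicates 1 to 3, against 7.20, 6.58 and 46.4% for Sirt5+/+ replicates 1 to 3, so Sirt5+/+ replicate 3 stood apart from the other Sirt5+/+ livers. Among Sirt5-/- livers replicate 1 had the highest share. Levels below are CPM, counts relative to library size scaled between libraries with TMM factors, and those factors ran from 0.857 to 1.68 in Sirt5-/- livers and from 0.396, in Sirt5+/+ replicate 3, to 1.20 in Sirt5+/+ livers. The 20 hepatocyte markers, all detected, were lower in Sirt5-/- livers in 16 cases and higher in 0, with a median log2 fold change of -1.92 (edgeR with TMM factors; with library totals 3 of 20 were lower, with a median of -1.38), and their summed level in CPM was 26927 to 48604 CPM in Sirt5-/- livers, against 115266 to 155547 CPM in Sirt5+/+ livers. Markers of other cells moved too: 6 of 8 macrophage markers were higher and 1 was lower (sum 1037 to 2096 CPM against 309 to 409), 5 of 8 stellate cell and fibroblast markers were higher (2192 to 2399.8 CPM against 409 to 692), 4 of 8 lymphocyte markers were higher (22.8 to 25.6 CPM against 4.71 to 7.47), 2 of 8 bile duct markers were higher (752 to 832 CPM against 90.9 to 402) and 3 of 6 endothelial markers were lower (51.7 to 61.0 CPM against 62.4 to 112), the Sirt5-/- values first in each. No marker in these lists was at 0 in all livers. In whole liver RNA, fewer hepatocytes and less of an RNA per hepatocyte cannot be told apart, and the part of cell composition in the results on these genes was not tested.

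All 10 members were lower in Sirt5-/- livers with TMM factors, by a median of -2.29 on the log2 scale beside -0.08 over the 14799 genes tested (2525 of these, 17.1%, were lower in Sirt5-/- livers, and 2575, 17.4%, were higher; edgeR quasi-likelihood test, adjusted p under 0.05). In CPM all 10 had every Sirt5-/- liver below every Sirt5+/+ liver, which held for 24% of the genes tested. Mat2a, which makes SAM outside the adult liver, fell least and Gnmt, the glycine methyltransferase, fell most apart from Gm4737. Summed over the members, the level was 1546, 1330.4 and 1059 CPM in Sirt5-/- replicates 1 to 3, against 8886, 6742 and 4212 CPM in Sirt5+/+ replicates 1 to 3. These falls depend on how libraries are scaled. With library totals alone 5 members were lower, beside 2.2% of all genes tested. Relative to the 20 hepatocyte markers 2 were lower, beside 0.595% of all genes, and 1, Mat2a, was higher, beside 73.5%. Ahcy and Gm4737 are counted singly in these numbers, and their sum was fitted with TMM factors only. In the authors' deposited table all 10 were lower as well, with log2 fold changes between -3.74 and -0.98.

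**Figure D1:**
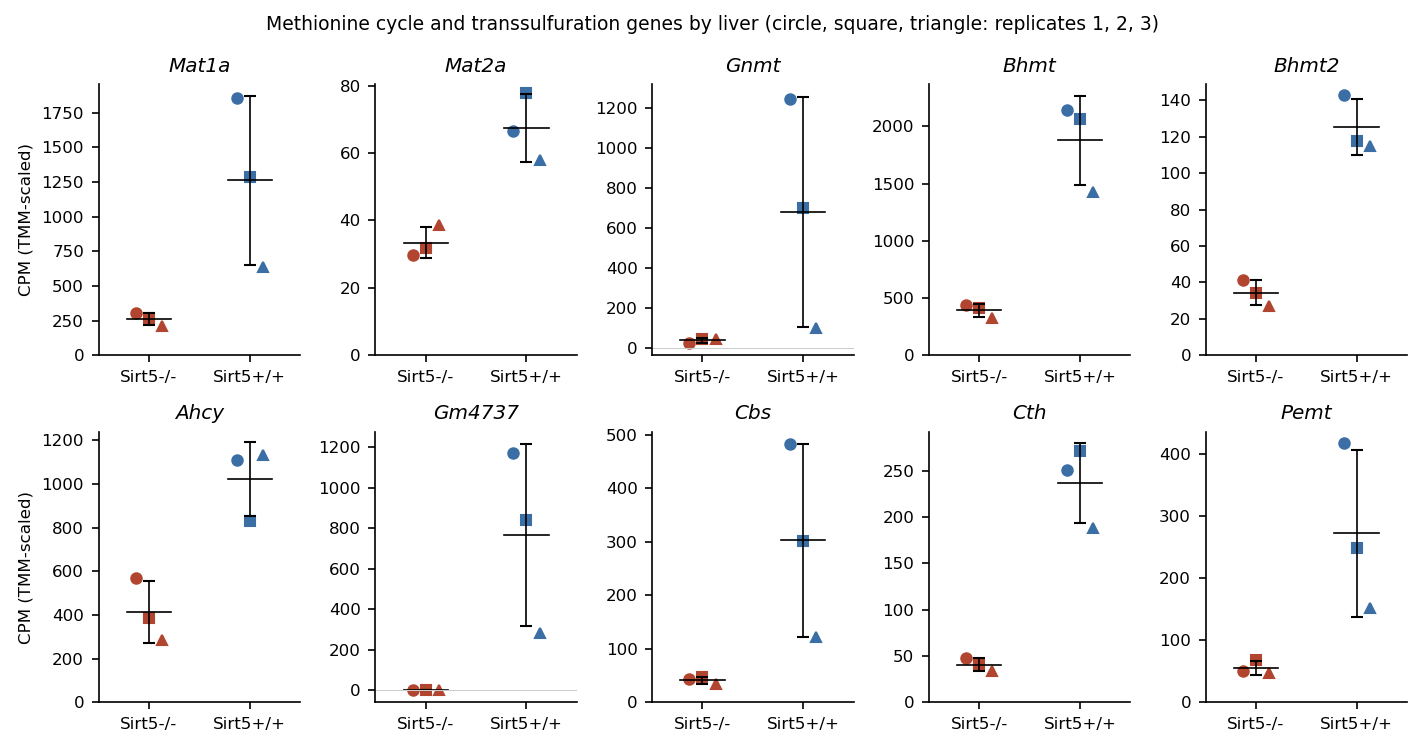
Level of each member in CPM scaled with TMM factors (linear axes), Sirt5-/- livers in red on the left and Sirt5+/+ livers in blue on the right; bars are the mean and SD of 3 livers. In every panel the Sirt5-/- points lie below the Sirt5+/+ points, and the triangle of Sirt5+/+ replicate 3 is the lowest Sirt5+/+ liver for 9 of the members, Gnmt at 100 CPM among them, but the highest for Ahcy.

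Both catalytic genes of SAM synthesis, the first step of the cycle, were lower with TMM factors. Mat1a, the SAM synthetase gene of the adult liver (chromosome 14, 41105035 to 41124412, plus strand, GRCm38), had 301, 269 and 213 CPM in Sirt5-/- replicates 1 to 3, against 1857, 1289.9 and 638 CPM in Sirt5+/+ replicates 1 to 3. The groups did not overlap, and the Sirt5+/+ livers differed among themselves more than the Sirt5-/- livers did. Mat1a averaged 261 ± 44.5 CPM in Sirt5-/- livers and 1262 ± 610 CPM in Sirt5+/+ livers (SD, n = 3 each), and fell by 2.27 ± 0.47 on the log2 scale (SE), a 4.83-fold lower level (edgeR, adjusted p = 0.00751). Mat2a, the SAM synthetase gene of other tissues (chromosome 6, 72432799 to 72439558, minus strand), had 29.7, 31.8 and 38.5 CPM in Sirt5-/- replicates 1 to 3, against 66.6, 77.9 and 57.8 CPM in Sirt5+/+ replicates 1 to 3. It was the lowest member in CPM in each Sirt5+/+ liver but not in the Sirt5-/- livers, and all Sirt5-/- livers were below all Sirt5+/+ livers. Mat2a fell by 1.02 ± 0.24 on the log2 scale (SE; edgeR, adjusted p = 0.0134), and without Sirt5-/- replicate 1 or 2 it missed the threshold (adjusted p = 0.06 and 0.0883). The coding sequences of Mat2a and Mat1a are 73.6% identical, and the transcripts of the 2 genes share 0% of their 31-base words. Mat2a shares 19.47% of its words with other genes, most of all with Particl (10.29%).

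The ratio of Mat1a to Mat2a within a liver does not depend on scaling between libraries. Taken on the deposited TPM, which are per transcript length, the ratio was 2.75, 3.68 and 2.46 in Sirt5-/- replicates 1 to 3, against 15.8, 14.2 and 2.63 in Sirt5+/+ replicates 1 to 3. In TPM, Sirt5+/+ replicate 3 lay inside the Sirt5-/- range and the other two Sirt5+/+ livers lay far above it. The mean log2 ratio was 1.55 ± 0.30 in Sirt5-/- livers and 3.07 ± 1.45 in Sirt5+/+ livers (SD, n = 3 each), a difference of -1.52 (exact two-sided permutation test, p = 0.3, where 0.1 is the smallest p that 3 livers against 3 allow). Without Sirt5+/+ replicate 3 the difference was -2.36. With expected counts in place of TPM the mean log2 ratio was 2.96 ± 0.45 in Sirt5-/- livers and 4.10 ± 0.67 in Sirt5+/+ livers (SD). The difference was then -1.14 and the groups did not overlap (exact permutation p = 0.1), so Sirt5+/+ replicate 3 lay above every Sirt5-/- liver. The step from counts to TPM thus changed the ratio by unlike factors in different livers, and the reason was not tested.

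**Figure D2:**
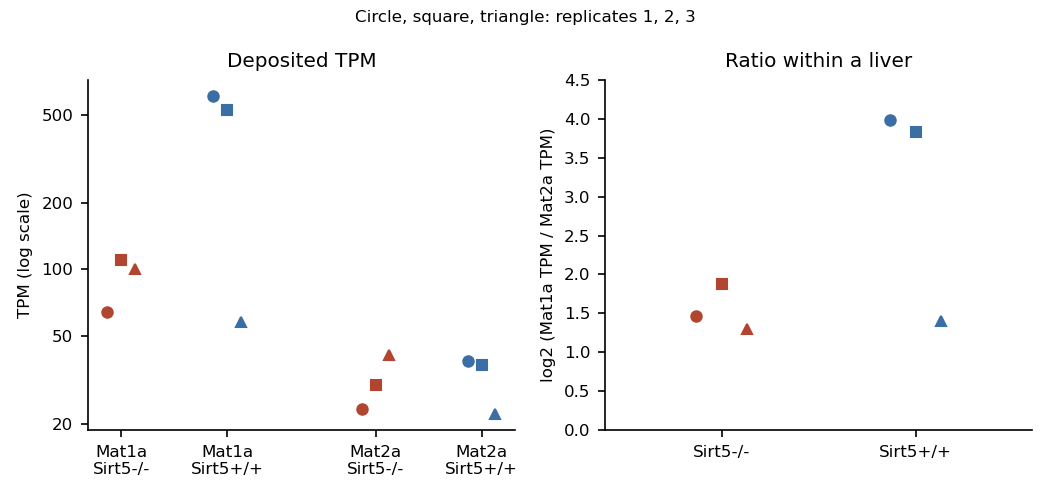
Deposited TPM of Mat1a and Mat2a in each liver (left, log scale) and the log2 of their ratio within a liver (right), Sirt5-/- in red and Sirt5+/+ in blue. The ratio lies between 1.3 and 1.88 in Sirt5-/- livers and at 3.98, 3.83 and 1.40 in Sirt5+/+ replicates 1 to 3, so in TPM 1 Sirt5+/+ liver sits among the Sirt5-/- livers. With expected counts, not drawn here, the groups did not overlap.

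Of the enzymes that spend SAM, Gnmt showed the deepest fall. GNMT methylates glycine to sarcosine and is known for keeping SAM in check when methionine is plentiful. Gnmt (chromosome 17, 46725664 to 46729168, minus strand) had 27.1, 44.5 and 48.2 CPM in Sirt5-/- replicates 1 to 3, against 1246, 699.7 and 100 CPM in Sirt5+/+ replicates 1 to 3. The lowest Sirt5+/+ liver was still above the highest Sirt5-/- liver, but it stood much closer to the Sirt5-/- livers than to the other two of its own genotype. Gnmt averaged 39.9 ± 11.2 CPM in Sirt5-/- livers and 682 ± 573 CPM in Sirt5+/+ livers (SD, n = 3 each), and fell by 4.09 ± 0.83 on the log2 scale (SE; edgeR, adjusted p = 0.00706). Its spread between livers was above that of 94.6% of genes tested, and leaving out 1 liver at a time gave log2 fold changes between -4.55 and -3.29, the smallest without Sirt5+/+ replicate 1. PEMT methylates phosphatidylethanolamine to phosphatidylcholine, a lipid of bile and lipoproteins. Pemt (chromosome 11, 59970614 to 60046489, minus strand) had 50.6, 67.5 and 47.7 CPM in Sirt5-/- replicates 1 to 3, against 417, 248 and 152 CPM in Sirt5+/+ replicates 1 to 3. The groups did not overlap, and Pemt fell by 2.30 ± 0.41 on the log2 scale (SE), 4.93-fold (edgeR, adjusted p = 0.00450).

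The promoter windows of Gnmt, which fell most after Gm4737, and of Mat2a, which fell least, are shown because these 2 genes mark the ends of the range. Each window runs from 250 bases before to 50 bases after the RefSeq start of the gene (GRCm38.p6), with matches to the motifs searched in capitals. The window of Gnmt, at chr17:46729116-46729415 on the minus strand, has 62% G and C and 11 CpG sites. The window of Mat2a, at chr6:72439507-72439806 on the minus strand, has 67% G and C and 34 CpG sites.
Gnmt: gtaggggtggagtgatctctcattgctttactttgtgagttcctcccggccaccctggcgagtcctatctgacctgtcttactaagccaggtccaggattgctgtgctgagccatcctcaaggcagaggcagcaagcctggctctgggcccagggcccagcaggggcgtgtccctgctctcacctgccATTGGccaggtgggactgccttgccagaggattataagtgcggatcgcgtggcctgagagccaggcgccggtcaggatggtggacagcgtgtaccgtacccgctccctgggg
Mat2a: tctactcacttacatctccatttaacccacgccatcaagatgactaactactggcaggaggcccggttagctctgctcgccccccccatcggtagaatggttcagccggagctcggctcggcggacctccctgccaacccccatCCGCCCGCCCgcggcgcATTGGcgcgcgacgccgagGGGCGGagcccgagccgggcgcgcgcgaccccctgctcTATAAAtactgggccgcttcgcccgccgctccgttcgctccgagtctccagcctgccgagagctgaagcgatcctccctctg
The motifs were searched on both strands, and their share among 32851 RefSeq promoters of the same length was counted. The HNF4 motif CAAAGTCCA was found in 0.475% of these promoters, the C/EBP motif TTNNGNAA in 40.7% and the antioxidant response element TGACNNNGC in 12.4%. The CCAAT box (its name gives its letters) was found in 37.4%, the TATA box, spelled TATAAA, in 13.6%, the E-box, spelled CACGTG, in 7.15% and the GC box, spelled GGGCGG, in 35.7%. The Gnmt window held 1 CCAAT box, on the other strand, and no other match. The Mat2a window held 1 CCAAT box, 1 TATA box and 3 GC boxes, of which a pair on the other strand overlap. A match is a run of letters and not a measured binding site.

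S-adenosylhomocysteine hydrolase, encoded by Ahcy, splits the product of methyl transfer, which otherwise blocks methyltransferases. Gm4737 is annotated as a protein-coding retrogene, an intronless copy made from a messenger RNA, of Ahcy. Ahcy lies on chromosome 2 (155059310 to 155074497, minus strand) and Gm4737 on chromosome 16 (46152985 to 46155077, minus strand). Their coding sequences have the same length of 1296 bases and differ at 4 positions (99.69% identity), and 93.21% of the 31-base words of Gm4737 transcripts occur in Ahcy. The following stretch, coding positions 415 to 474 counted from the A of the start codon, holds 2 of the 4 differences, written in capitals (C459T and G474A, with the base of Ahcy first).
Ahcy: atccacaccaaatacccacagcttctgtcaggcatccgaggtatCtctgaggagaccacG
Gm4737: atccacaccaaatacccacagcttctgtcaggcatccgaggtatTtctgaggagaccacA
Reads tell them apart where they cross such a position or an unaligned end of either transcript, such as the 416 bases at the end of Ahcy, and the estimated counts divide the rest between the entries. The 2 were therefore read together.

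Ahcy alone had 569, 386 and 287 CPM in Sirt5-/- replicates 1 to 3, against 1110.1, 828 and 1131 CPM in Sirt5+/+ replicates 1 to 3. It fell by 1.31 ± 0.39 on the log2 scale (SE; edgeR, adjusted p = 0.0314), the weakest call among the members, and it missed the threshold with the replicate number as a block (adjusted p = 0.0589), and when any of 4 of the 6 livers was left out (adjusted p up to 0.155). Gm4737 had 0, 12 and 0 counts in Sirt5-/- replicates 1 to 3, against 24750, 23579 and 2149 counts in Sirt5+/+ replicates 1 to 3. In the 2 Sirt5-/- livers with no count, 3 counts would be 0.175 and 0.0828 CPM, while the Sirt5+/+ livers had 1174, 842 and 282 CPM. The fit across all genes called Gm4737 lower (edgeR, adjusted p = 0.00148), but the size it fits rests on the prior count and its spread was above that of 97% of genes, so no fold is given. Gm4737 took 0, 0.0857 and 0% of the counts of the pair in Sirt5-/- replicates 1 to 3 (exact Clopper-Pearson 95% intervals reach at most 0.150%), against 51.4, 50.4 and 19.9% in Sirt5+/+ replicates 1 to 3 (19.2 to 20.7% for the lowest), intervals that cover counting error only. The share thus differed between genotypes in every liver, and also between Sirt5+/+ replicate 3 and the other two. What sets the split was not tested.

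Summed over both entries the level was 569, 386 and 287 CPM in Sirt5-/- replicates 1 to 3, against 2284, 1669.9 and 1412 CPM in Sirt5+/+ replicates 1 to 3. The sum averaged 414 ± 143 CPM in Sirt5-/- livers and 1789 ± 448 CPM in Sirt5+/+ livers (SD, n = 3 each), and fell by 2.11 ± 0.43 on the log2 scale (SE), 4.32-fold (edgeR, adjusted p = 0.00727). The fall of the sum is larger than that of Ahcy alone, and nearly all counts given to Gm4737 were in Sirt5+/+ livers. Other annotated copies (Gm9826, Gm5638 and Gm4913) held at most 1.46 estimated counts in any liver.

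**Figure D3:**
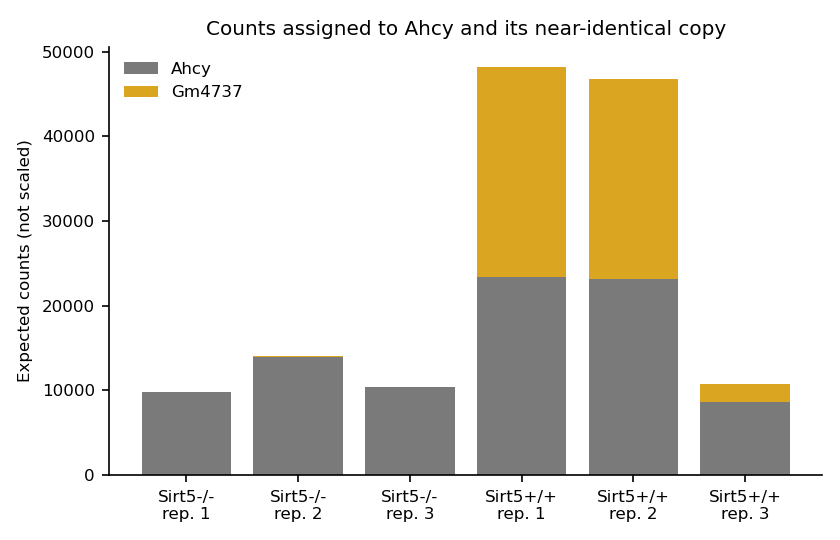
Expected counts, not scaled between libraries, assigned to Ahcy (grey) and to Gm4737 (yellow) in each liver, Sirt5-/- replicates on the left. Gm4737 takes no visible part in Sirt5-/- livers, 51.4 and 50.4% in Sirt5+/+ replicates 1 and 2 and 19.9% in Sirt5+/+ replicate 3, whose summed count of 10780 is like the 9748 to 14002 of Sirt5-/- livers.

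The promoter windows of the pair are shown because the copy was made from a transcript, so the bases before its start need not match its parent. The windows are not wholly separate. The transcripts align from base 2 of Gm4737 and base 42 of Ahcy, so the end of the Gm4737 window is sequence shared with the Ahcy transcript. The window of Ahcy (chr2:155074448-155074747, minus strand) has 52.7% G and C and 13 CpG sites, and that of Gm4737 (chr16:46155028-46155327, minus strand) has 36.7% and 4, with motif matches in capitals as above.
Ahcy: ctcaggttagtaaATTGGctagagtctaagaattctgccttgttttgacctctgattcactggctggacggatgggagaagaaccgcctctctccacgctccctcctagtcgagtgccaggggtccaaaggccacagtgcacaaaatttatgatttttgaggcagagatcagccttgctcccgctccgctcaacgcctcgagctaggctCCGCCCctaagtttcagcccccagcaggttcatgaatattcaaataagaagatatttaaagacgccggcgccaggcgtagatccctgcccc
Gm4737: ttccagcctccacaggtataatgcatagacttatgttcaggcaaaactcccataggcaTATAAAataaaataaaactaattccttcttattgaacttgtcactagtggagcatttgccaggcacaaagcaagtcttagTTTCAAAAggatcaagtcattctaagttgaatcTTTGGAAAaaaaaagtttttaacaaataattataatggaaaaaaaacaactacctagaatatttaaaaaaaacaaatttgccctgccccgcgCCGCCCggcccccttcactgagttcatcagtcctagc
The Ahcy window held 1 CCAAT box and 1 GC box, and that of Gm4737 held 1 TATA box, 1 GC box and 2 matches to TTNNGNAA. The GC box of the Gm4737 window lies after its start, in the part aligned to the Ahcy transcript.

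Both genes that methylate homocysteine without folate were lower with TMM factors. BHMT moves a methyl group from betaine to homocysteine, and BHMT2, encoded next to it on chromosome 13, uses S-methylmethionine as the donor. Bhmt (93616675 to 93637961, minus strand) had 437, 409.6 and 329 CPM in Sirt5-/- replicates 1 to 3, against 2139, 2066 and 1426 CPM in Sirt5+/+ replicates 1 to 3. Bhmt averaged 392 ± 56.3 CPM in Sirt5-/- livers and 1877 ± 392 CPM in Sirt5+/+ livers (SD, n = 3 each), and fell by 2.26 ± 0.39 on the log2 scale (SE), 4.79-fold (edgeR, adjusted p = 0.00390). Bhmt2 (93655720 to 93674302, minus strand) had 41.3, 34.4 and 27.3 CPM in Sirt5-/- replicates 1 to 3, against 143, 118 and 115 CPM in Sirt5+/+ replicates 1 to 3. Its livers were close together within each genotype, and it fell by 1.87 ± 0.27 on the log2 scale (SE), 3.65-fold (edgeR, adjusted p = 0.00241). The coding sequences of Bhmt2 and Bhmt are 75.37% identical and 1.66% of the 31-base words of Bhmt2 occur in Bhmt, while Bhmt shares 27.11% of its words with the entry Gm5096.

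Transsulfuration starts with CBS, which joins homocysteine to serine, and ends with CTH, which releases cysteine from cystathionine. Cbs (chromosome 17, 31608894 to 31637238, minus strand) had 42.9, 46.8 and 34.3 CPM in Sirt5-/- replicates 1 to 3, against 483, 302 and 123 CPM in Sirt5+/+ replicates 1 to 3. It was the member with the deepest fall after Gm4737 and Gnmt, by 2.87 ± 0.49 on the log2 scale (SE), 7.33-fold (edgeR, adjusted p = 0.00393). Cth (chromosome 3, 157894248 to 157925077, minus strand) had 47.7, 40.7 and 33.7 CPM in Sirt5-/- replicates 1 to 3, against 250.5, 271 and 188 CPM in Sirt5+/+ replicates 1 to 3. Cth averaged 40.7 ± 6.98 CPM in Sirt5-/- livers and 237 ± 43.2 CPM in Sirt5+/+ livers (SD, n = 3 each), and fell by 2.54 ± 0.30 on the log2 scale (SE), 5.82-fold (edgeR, adjusted p = 0.00168). Its Sirt5+/+ livers were nearer to each other than those of Cbs or Gnmt.

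Because most hepatocyte markers were lower in Sirt5-/- livers with TMM factors, the members were also scaled to them, which asks whether a gene moved more or less than these markers. On this scale the median of all genes tested is 1.79, and 73.5% of genes were higher and 0.595% lower in Sirt5-/- livers (edgeR, adjusted p under 0.05). Of the 10 members 2 were lower, Gnmt by 2.0 on the log2 scale (95% interval -3.42 to -0.58; adjusted p = 0.0159) and Gm4737 (adjusted p = 7.74e-05), and 1, Mat2a, was higher by 0.89 (0.07 to 1.71; adjusted p = 0.0481), which is below the median of all genes on this scale. Gm4737 and Ahcy are counted singly here, and their sum was not fitted on this scale. The call of Gm4737 thus rests on how counts were divided within the pair. The other 7 did not pass, which does not show that they moved as the markers did: Bhmt2 was at -0.02 (-0.71 to 0.67), Mat1a at -0.34 (-1.21 to 0.52), Pemt at -0.35 (-1.15 to 0.45), Bhmt at -0.39 (-1.22 to 0.45), Cth at -0.69 (-1.41 to 0.04), Cbs at -0.91 (-1.79 to -0.03, adjusted p = 0.0569) and Ahcy at 0.49 (-0.37 to 1.36). Mat2a lost its call when any liver other than Sirt5-/- replicate 1 or Sirt5+/+ replicate 3 was left out (adjusted p up to 0.174), and Gnmt lost it without Sirt5-/- replicate 1 (-1.70, adjusted p = 0.0688). Cbs was also lower without Sirt5+/+ replicate 3 (-1.21, adjusted p = 0.00268).

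By liver, the log2 level of Gnmt relative to the mean of the markers was -5.03, -4.13 and -3.59 in Sirt5-/- replicates 1 to 3, against -1.44, -1.88 and -4.46 in Sirt5+/+ replicates 1 to 3. Sirt5+/+ replicate 3 was inside the Sirt5-/- range, so the groups overlap on this scale. For Mat2a the same level was -4.89, -4.61 and -3.91 in Sirt5-/- replicates 1 to 3, against -5.67, -5.04 and -5.25 in Sirt5+/+ replicates 1 to 3, with no overlap. For Bhmt2 it ran from -4.50 to -4.40 in Sirt5-/- livers and from -4.57 to -4.26 in Sirt5+/+ livers. Bhmt and Cth did not overlap either, with the Sirt5-/- livers lower, though neither passed in the fit. Bhmt ran from -1.01 to -0.81 in Sirt5-/- livers and from -0.66 to -0.31 in Sirt5+/+ livers. Cth ran from -4.25 to -4.10 in Sirt5-/- livers and from -3.76 to -3.24 in Sirt5+/+ livers. The share of all genes tested whose groups separate on this scale was not counted, so the separations of Mat2a, Bhmt and Cth have no background beside them. In the fit on this scale 73.5% of genes tested were higher and 0.595% lower in Sirt5-/- livers.

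**Figure D4:**
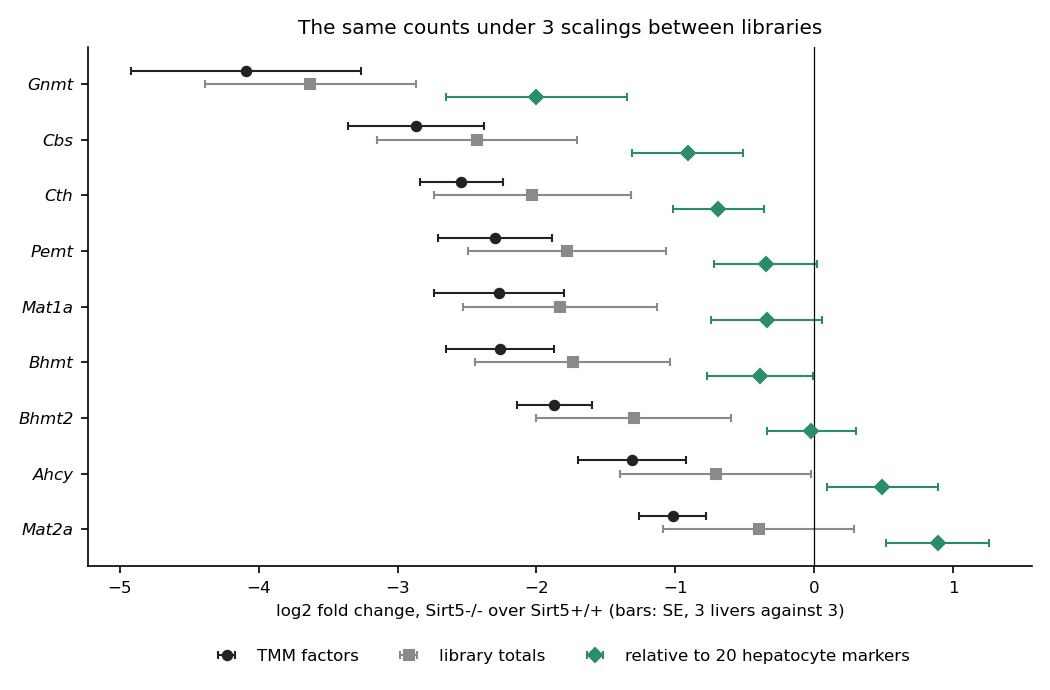
Log2 fold change, Sirt5-/- over Sirt5+/+, of 9 members (without Gm4737, whose fitted size rests on the prior count) with TMM factors (black circles), library totals (grey squares) and scaling to 20 hepatocyte markers (green diamonds); bars are SE from 3 livers against 3. The order of the genes is nearly the same on each scale, from Gnmt at -4.09, -3.63 and -2.0 to Mat2a at -1.02, -0.40 and 0.89, while the place of 0 shifts.

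With library totals in place of TMM factors the median of all genes tested was 0.60 and 2.2% of genes were lower in Sirt5-/- livers. On that scale 5 members were lower, Mat1a, Gnmt, Gm4737, Cbs and Cth, among them Gnmt by 3.63 and Cbs by 2.43 on the log2 scale (edgeR, adjusted p = 0.0001 and 0.00771). The deposited TPM, which are not rescaled between livers, separated the genotypes for 2 members, Gm4737 and Cth, where 1.37% of genes tested had every Sirt5-/- liver below every Sirt5+/+ liver. For the other 8 members Sirt5+/+ replicate 3 lay below the highest Sirt5-/- liver: Gnmt, for example, had 22.5, 68.9 and 85.7 TPM in Sirt5-/- replicates 1 to 3, against 1537, 1087 and 33.0 TPM in Sirt5+/+ replicates 1 to 3. For Mat2a every Sirt5+/+ liver (38.5, 37 and 22.1 TPM in replicates 1 to 3) lay below Sirt5-/- replicate 3 (40.8 TPM). Its mean TPM was 31.3 in Sirt5-/- and 32.5 in Sirt5+/+ livers. Summed over the members, TPM was 560.1, 939 and 836 in Sirt5-/- replicates 1 to 3, against 5203, 4645 and 672 in Sirt5+/+ replicates 1 to 3. Summed TPM of the hepatocyte markers ran alike, 35461 to 50644 in Sirt5-/- livers and 33923 to 156237 in Sirt5+/+ livers, with Sirt5+/+ replicate 3 the lowest of all 6. With TMM factors and without Sirt5+/+ replicate 3 all 10 members were still called lower. In that fit 7647 of 15608 genes tested were called in either direction, against 5100 of 14799 with all livers.

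Ranked by mean TPM, a level per transcript length, the Sirt5-/- order was Ahcy (216 ± 28.8), Bhmt (181 ± 52.3), Pemt (99.8 ± 37.5), Mat1a (91.5 ± 24.5), Gnmt (59.0 ± 32.7), Cth (52.7 ± 12.5), Mat2a (31.3 ± 8.87), Cbs (31.2 ± 11.1), Bhmt2 (15.7 ± 3.67) and Gm4737 (0.07 ± 0.12), each as mean ± SD of 3 livers. The ranges of neighbours overlapped down to Cbs, and Bhmt2 and Gm4737 each lay below the gene before. In Sirt5+/+ livers Gnmt (885 ± 772 TPM) and Bhmt (740.3 ± 503 TPM) led and Mat2a (32.5 ± 9.11 TPM) was last, and with Sirt5+/+ replicate 3 included the ranges of all neighbours in that order overlapped. In single Sirt5+/+ livers the lead changed: Gnmt was above Bhmt in replicate 1 (1537 against 929.9 TPM) and below it in replicates 2 (1087 against 1121 TPM) and 3 (33.0 against 169.5 TPM).

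Around the members stand 49 further genes in 6 lists, of which 47 were tested (Pnmt and Pcyt1b were too low). With TMM factors 26 were lower in Sirt5-/- livers and 3 were higher (edgeR, adjusted p under 0.05), with a median log2 fold change of -1.21, beside 17.1% and 17.4% of all genes. Of 8 genes of remethylation and betaine supply 5 were lower and 1 was higher. Among the lower were Chdh, which oxidises choline towards betaine (-2.83 ± 0.41), Dmgdh, which demethylates dimethylglycine (-2.57 ± 0.36), and Sardh, which demethylates the sarcosine made by GNMT (-2.42 ± 0.41; log2 fold change ± SE, adjusted p = 0.00246, 0.00231 and 0.00372). Methionine synthase, Mtr, which uses a folate methyl group, was at 0.84 ± 0.31 and its reductase Mtrr at -0.42 ± 0.32 (log2 fold change ± SE), and neither passed (edgeR, adjusted p = 0.0661 and 0.345).

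Past transsulfuration, 10 of 12 genes of cysteine use were lower and 0 were higher with TMM factors, beside 17.1% and 17.4% of all genes. With library totals 0 of 12 were lower, beside 2.2% of all genes. Relative to the hepatocyte markers 0 were lower and 1 was higher, beside 0.595% and 73.5%. The same shares apply to the other lists of this paragraph. The 10 genes lower with TMM factors include Mpst, which takes sulfur from a cysteine product (-2.21 ± 0.36), Csad, on the way to taurine (-2.22 ± 0.37), and Ethe1, the mitochondrial persulfide dioxygenase (-1.70 ± 0.30; log2 fold change ± SE, edgeR adjusted p = 0.00345, 0.00355 and 0.00445). Csad had 37.1, 30.6 and 28.2 CPM in Sirt5-/- replicates 1 to 3, against 216, 145 and 86.6 CPM in Sirt5+/+ replicates 1 to 3. Of 7 SAM-dependent small-molecule methyltransferases tested 5 were lower with TMM factors and 0 on either of the other scales, among them Inmt and As3mt at -2.07 ± 0.40 and -1.28 ± 0.26 (adjusted p = 0.00586 and 0.00671). Among 6 genes of SAM synthesis partners and S-adenosylhomocysteine removal 2 were lower, Adk, the adenosine kinase (-1.13 ± 0.37, adjusted p = 0.0462), and Ahcyl1, an AHCY-like protein (-0.99 ± 0.25, adjusted p = 0.0183). Ada, the adenosine deaminase of that list, was at 1.21 ± 0.55 (adjusted p = 0.126), and Mat2b, the regulatory partner of MAT2A, at -0.18 ± 0.20 (adjusted p = 0.534).

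Of 9 genes of polyamine synthesis and methionine salvage 2 were lower and 2 higher with TMM factors, beside 17.1% and 17.4% of all genes: Adi1 and Mri1 fell by 2.15 ± 0.32 and 0.95 ± 0.26, while Enoph1 and Mtap rose by 1.53 ± 0.31 and 0.66 ± 0.21 (log2, SE; edgeR adjusted p = 0.00250, 0.0228, 0.00727 and 0.0392). These 4 encode enzymes of the salvage of methionine from methylthioadenosine, the by-product of polyamine synthesis. Enoph1 had 15.1, 11.5 and 16.3 CPM in Sirt5-/- replicates 1 to 3, against 3.65, 4.36 and 7.08 CPM in Sirt5+/+ replicates 1 to 3. Of 5 tested genes of the CDP-choline route, which makes phosphatidylcholine without PEMT, 2 were lower, Pcyt1a (-1.60 ± 0.44) and Chpt1 (-1.50 ± 0.26; adjusted p = 0.0227 and 0.00426), and Cept1 was at -0.27 ± 0.26 (adjusted p = 0.447). Cept1, Chkb and Amd1 share 23.01, 54.31 and 82.79% of their 31-base words with other genes, so their counts are uncertain. The same limit applies to the members Bhmt and Mat2a, with 30.29 and 19.47%. Relative to the hepatocyte markers 1 of the 47, Chdh, was lower (-0.95, adjusted p = 0.0330) and 20 were higher, beside 0.595% and 73.5% of all genes. With library totals 4 were lower and 2 higher, beside 325 and 2438 of all 14799 genes tested. Of the genes named above as lower with TMM factors, Ahcyl1 (0.92), Adk (0.62), As3mt (0.63), Ethe1 (0.24), Mri1 (0.97), Chpt1 (0.30) and Pcyt1a (0.40) lay above 0 on the log2 scale relative to the markers. Of these Ahcyl1 and Mri1 passed (edgeR, adjusted p = 0.0352 and 0.0344). Larger values among the 20 higher genes were those of Enoph1 (3.37), Ada (3.20), Mtr (2.70), Mtap (2.56), Mat2b (1.69) and Cept1 (1.54).

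**Figure D5:**
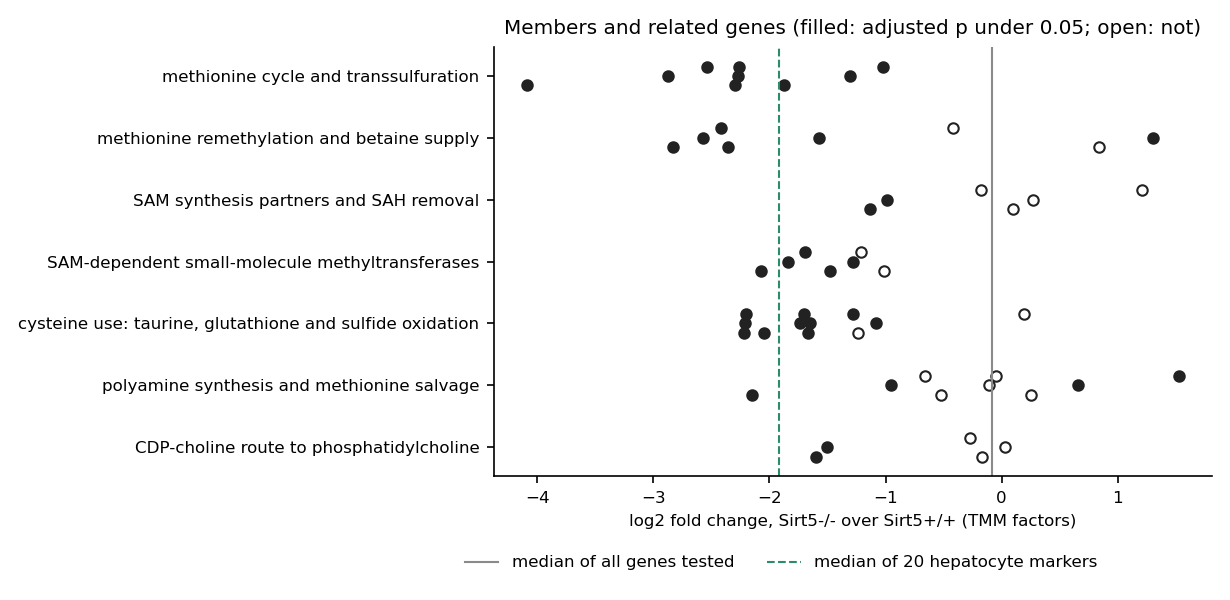
Log2 fold change with TMM factors, Sirt5-/- over Sirt5+/+, of 9 members (without Gm4737) and of the 47 tested related genes by list; filled circles passed an adjusted p of 0.05 and open circles did not. The grey line is the median of all genes tested (-0.08) and the green dashed line the median of 20 hepatocyte markers (-1.92): members, betaine genes and genes of cysteine use lie mostly near the green line, and polyamine and CDP-choline genes mostly near the grey one.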

How the data were processed

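The deposited table holds, for 6 livers, expected counts per gene, TPM, and the authors' log2 fold changes with raw and adjusted p-values. The expected counts and TPM were made by the authors before deposit; HISAT2 2.1.0, RSEM 1.3.1 and DESeq2 1.24.0 are named in the submitters' processing notes, and the role of each and the genome build are not given in the sources used here. All 55536 gene IDs match GENCODE M21, so coordinates are on GRCm38; 30117 entries had no count. The authors' deposited log2 fold changes and p-values were used only where named.

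Expected counts were rounded, filtered (filterByExpr, minimum count 10, minimum total 15) and tested two-sided by edgeR's quasi-likelihood method (4.0.16, R 4.3.3), with genotype as the only term, TMM factors, Benjamini-Hochberg adjusted over 14799 genes, threshold 0.05; the common biological coefficient of variation was 0.373. SE was taken as the log2 fold change over the root of the F statistic. A count of 3 in a library equals 0.0827 to 0.393 CPM, and 16723 to 20954 genes were detected. Sets of genes were counted, not tested. Shared sequence was measured as the percent of 31-base words of a gene's transcripts found in other genes. On simulated data the steps recovered the largest of the fold changes set, in genes of ample counts. Recovery of smaller changes, such as that of Mat2a, is not given here. There were more false calls than nominal among genes of the highest spread, so the spread is given beside Gnmt and Gm4737. Promoter sequences are from RefSeq (GRCm38.p6; 8 of 10 members matched) and transcripts from GENCODE.

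The genes named are the members, Sirt5 and, in each related list, the 3 tested genes with the smallest p. Mat2b, Mtr, Mtrr and Mtap were named after their values were seen. A further 2 related genes are not reported here and are counted with their lists. The members and lists were chosen with earlier results of these data known. Alternatives were other scalings, filters, tools (DESeq2 1.42.0, limma 3.58.1), the replicate block, and leaving out livers; the robust fit and the leave-one-out fits relative to hepatocyte markers were chosen after seeing the data. Libraries of the same genotype differed beyond counting noise (chi-square per gene of at least 35.48), so each was counted as 1 sample.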

Additional observations from a re-analysis of the deposited data

How the results depend on the processing

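All 10 members were called lower with DESeq2 size factors, no filter, a stricter filter, DESeq2, limma-voom, the robust fit, without mitochondrial genes and their copies, without the mitochondria-richest liver of each genotype, and in the authors' comparison, and 9 with upper-quartile factors. Genes called in either direction ran from 4476 of 11821 tested with the stricter filter to 7439 of 15527 without the mitochondria-richest livers. Over the members' own alternatives 178 values kept direction and call, 19 kept direction only and 2 changed direction; for the other named genes these numbers were 304, 44 and 10, with 1 newly called. With library totals 2763 genes, 5 members and 4 related genes (lower) were called, and Cept1 was at 0.46. Relative to hepatocyte markers 10964 genes were called, 2 members lower and 1 higher, 1 related gene lower and 20 higher; log2 fold changes became positive for Mat2a (0.89), Ahcy (0.49), Ahcyl1 (0.92), Adk (0.62), As3mt (0.63), Ethe1 (0.24), Mri1 (0.97), Chpt1 (0.30), Pcyt1a (0.40) and Cept1 (1.54). Cept1 was at 0.02 without the mitochondria-richest liver of each genotype. The cause of these shifts was not tested.

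Leaving out 1 liver at a time gave 2531 to 7647 called genes (2531 of 15123 tested without Sirt5-/- replicate 3, 2677 of 15145 without Sirt5-/- replicate 2, 7647 of 15608 without Sirt5+/+ replicate 3), 8 to 10 members lower, 14 to 26 related genes lower and 2 to 5 higher, and a difference in the log2 Mat1a to Mat2a ratio of -2.36 to -1.07. Calls over all genes were counted in either direction in these fits, so no share of lower genes stands beside the counts of members. Relative to hepatocyte markers the same gave 1 to 3 members lower (1 without Sirt5-/- replicate 1, 3 without Sirt5+/+ replicate 3) and 0 to 1 higher, and Bhmt2 between -0.09 and 0.07, or 0.06 without the mitochondria-richest liver of each genotype.

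Replicate numbers gave no pairing: deviations of same-numbered livers correlated at -0.19, 0.115 and -0.204. The highest correlation between livers of unlike genotype was 0.266, of Sirt5-/- replicate 1 with Sirt5+/+ replicate 3. With the replicate block 3643 genes were called and 9 members were lower, Ahcy being lost (log2 fold change -1.35), and the Mat1a to Mat2a difference was -1.52 (exact permutation within pairs, p = 0.25). With 3 livers a genotype the sizes of change are imprecise, above all for Gnmt and Gm4737, whose levels vary most between livers. Sirt5+/+ replicate 3 stood apart from its genotype. To a smaller extent so did Sirt5-/- replicate 1, with a chi-square per gene of 237.7 and 360.8 to replicates 2 and 3, against 35.48 between those.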
